A study of Rattus norvegicus with 22 samples.

Results

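Regions carrying an H3K4me3 peak in both libraries of a single group, and in neither library of the other group, were collected from the rat hippocampus at day 1 after traumatic brain injury (TBI) or sham surgery. All peaks of the 4 lists that shared at least 1 base were merged, and merged regions of 500 bases or more were kept, which left 119956 of 623535 regions. Of these 119956, 6582 (5.49%) were found in both TBI libraries and no sham library (TBI-only regions), and 6106 (5.09%) in both sham libraries and no TBI library (sham-only regions). The 12688 members were chosen by the measured presence of peaks and by length, so presence and absence are a description and not a finding. Regions found in exactly 1 sham and 1 TBI library were chosen in the same way across the groups, and they give the level of such pairings that carry no group label. By these counts a pair of libraries of the same group was not more productive than every pair across groups: 10105 regions (8.42%) were found only in sham replicate 2 and TBI replicate 2.

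The study subjected adult male Sprague-Dawley rats to lateral fluid percussion over the right hemisphere, and sham rats were operated on and anesthetised alike but not injured. All 4 H3K4me3 libraries came from hippocampus taken at day 1, from tissue samples that were crosslinked individually, 2 from sham and 2 from TBI rats. Each was called on its own against its own input library, and the positions are those of the rat genome build rn5. The lists carry no gene names and no annotation of rn5 was used here, so the tissue could not be checked against marker genes, and it is not known here which members lie in promoters, exons or introns.

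Trimethylation of lysine 4 on histone H3 (H3K4me3) is a mark of nucleosomes around the start sites of active genes. It is written by methyltransferases of the SET1 and MLL families, which are drawn to promoters rich in unmethylated CpG, and it is read by proteins that help to recruit the transcription machinery. Very active or cell-identity genes in the brain often carry the mark over wide stretches. In tissue made of many cell types, a low peak can stand for few marked cells or for little mark in every cell, and these cannot be told apart in bulk samples.

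The libraries were not equal in depth. After filtering, 17789038 and 18972037 tags remained in sham replicates 1 and 2, and 16062200 and 7236993 in TBI replicates 1 and 2. The lists held 116241, 235078, 178020 and 353688 peaks in the same order, so the library with the fewest tags had the most peaks. The height of a peak is its pileup, the number of extended tags stacked over a base, averaged over the peak, and fold enrichment is that pileup over the genome-wide background, each plus 1. The lowest pileup called was 4 tags in both sham libraries, 3 in TBI replicate 1 and 2 in TBI replicate 2. The lowest fold enrichment called was 1.72, 1.65, 1.47 and 1.69 in the same order. The MACS2 run names in all 4 headers contain the word sham, the TBI libraries included, and the groups here follow the sample labels.

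Among the pairs across groups, 2300 regions (1.92%) were found only in sham replicate 1 and TBI replicate 1, 1580 (1.32%) only in sham replicate 1 and TBI replicate 2, and 5866 (4.89%) only in sham replicate 2 and TBI replicate 1. The pairs across groups that held sham replicate 1, the library with the fewest peaks, were smaller than those that held sham replicate 2. The smallest pair, however, also held TBI replicate 2, the library with the most peaks. The part of peak number was not tested. To take out such differences between libraries, the geometric mean of the pair counts within groups (6340 regions) was divided by the geometric mean of the 4 cross pairs (3831 regions), in which every library enters equally often. The ratio was 1.65. Libraries with the same replicate number also shared more regions than the other cross pairs: the product of their counts was 2.51 times the product of the other cross counts. The labels do not say what the replicate number stands for. The product of the within-group counts was 1.73 times that of the same-numbered pairs and 4.34 times that of the other cross pairs. In all, 12688 of the 32539 regions found in exactly 2 libraries (39.0%) were within a group and 19851 across groups. With 2 libraries against 2, an exact permutation test over samples cannot go below p = 0.333, so no test was made.

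The balance of TBI-only and sham-only regions moved with the lowest enrichment admitted and with how peaks were merged. Of the TBI-only regions, 4724 (71.8%) had a fold enrichment below 1.72 in at least 1 of their TBI libraries, which is under the lowest value that sham replicate 1 could have listed. Of the sham-only regions, 376 (6.16%) were under the higher of the TBI limits, 1.69. With only peaks of at least 1.72 in every list, a setting chosen after seeing the data, there were 2082 TBI-only and 9396 sham-only regions, and the ratio of within-group to cross counts was 1.76. The excess of TBI-only over sham-only regions in the full lists was thus turned into an excess of sham-only regions, while the ratio moved little. Taking the 116241 strongest peaks of each list gave 2046 and 7173 regions, again with more sham-only regions. The order was also turned, with the full lists, by requiring an overlap of 50% of the shorter peak (4974 TBI-only and 5471 sham-only regions), while merging peaks up to 1000 bases apart gave 17401 and 5257.

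**Figure D1:**
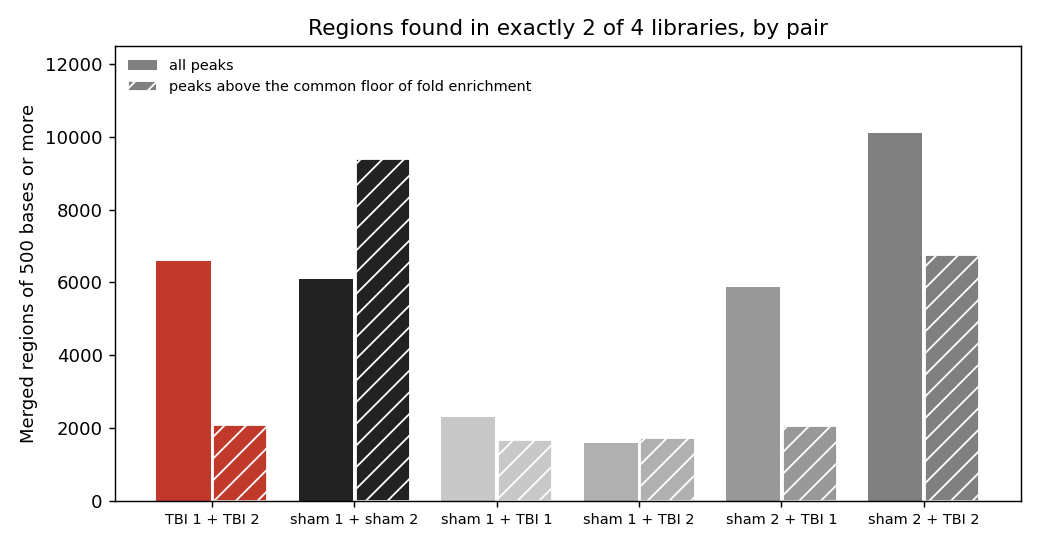
Number of merged regions of 500 bases or more (vertical axis) found in exactly 2 of the 4 libraries, for each pair of libraries, with all peaks (plain bars) and with peaks above the common floor of fold enrichment of 1.72 (hatched bars). With all peaks the pair of sham replicate 2 and TBI replicate 2 is the highest bar at 10105, and above the common floor the sham-only regions are highest at 9396, while TBI-only regions drop from 6582 to 2082.

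Most members were short and weak. TBI-only regions had a median length of 666 bases (longest 5271), sham-only regions of 726 bases (longest 3403), and regions found in all 4 libraries of 1836 bases. At 1000 bases or more there were 828 TBI-only (12.6%) and 1300 sham-only regions (21.3%), against 3.48% to 13.8% of the regions of the cross pairs and 81.2% of the 33930 regions found in all 4 libraries. The sham-only regions thus held a larger share of long regions than any other pair.

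In TBI-only regions the pileup ran from 3 to 14.3 tags in TBI replicate 1 (median 3.51) and from 2 to 7.31 in TBI replicate 2 (median 2.24). In sham-only regions it ran from 4 to 10.5 in sham replicate 1 (median 4.54) and from 4 to 15.4 in sham replicate 2 (median 4.98). Each median lay within about 1 tag of the lowest pileup its list held. The lower fold enrichment of the pair, taken for each region from its weaker library, had a median of 1.66 in TBI-only and 1.83 in sham-only regions, and of 2.55 over the 4 libraries of the shared regions. Only 7 TBI-only (0.106%) and 8 sham-only regions (0.131%) had a q under 0.05 in both libraries. In the cross pairs 0 to 3 regions did (at most 0.051%). Of the regions found in all 4, 15859 (46.7%) had such a q in every library.

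Within a pair the members did not rank alike. The rank correlation of fold enrichment between the 2 libraries of a pair was 0.14 over the TBI-only and 0.094 over the sham-only regions, against 0.032 to 0.13 over the regions of the 4 cross pairs. It was 0.89 to 0.93 for all 6 pairs of libraries over the 33930 shared regions, which span a far wider range of enrichment. The highest value there was across groups, 0.930 for sham replicate 1 with TBI replicate 1, against 0.920 within sham and 0.911 within TBI. These correlations are across regions, which are not replicates.

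The share of 2-library regions that fell within a group rose with length. From 500 to under 750 bases there were 4317 TBI-only and 3294 sham-only regions, and the ratio to the cross pairs was 1.44. From 1000 to under 1500 bases there were 638 and 1025, with a ratio of 2.72, and from 1500 to under 2000 bases 122 and 210, with a ratio of 7.32. The last ratio rests on 1 region in the pair of sham replicate 1 and TBI replicate 2. From 1000 to under 1500 bases the cross pairs with sham replicate 1 had 183 and 54 regions, and those with sham replicate 2 had 681 and 1162. The largest was thus above both kinds of member. From 1500 to under 2000 bases it had 191 regions, above TBI-only and below sham-only regions. At 2000 bases or more there were 68 TBI-only and 65 sham-only regions, against 1, 0, 20 and 39 in the cross pairs. Of all 2-library regions, 37.1% were within a group in the shortest class and 68.9% in the longest.

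The same pattern was seen with enrichment. With a lower fold enrichment of at least 2, 350 TBI-only and 999 sham-only regions were left and the ratio was 3.20, and with at least 2.25, 106 and 129 were left and the ratio was 7.03, with 3 regions in the smallest cross pair. At 2 or more the pair of sham replicate 2 and TBI replicate 2 had 696 regions, above TBI-only and below sham-only regions. At 2.5 or more there were 38 TBI-only and 16 sham-only regions, against 4, 0, 6 and 5 in the cross pairs. At 3 or more, 2 TBI-only and 5 sham-only regions were left and none in any cross pair. The order of TBI-only and sham-only counts was not stable along this scale: sham-only regions were more numerous at 2, 2.25 and 3, and TBI-only regions at 2.5.

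**Figure D2:**
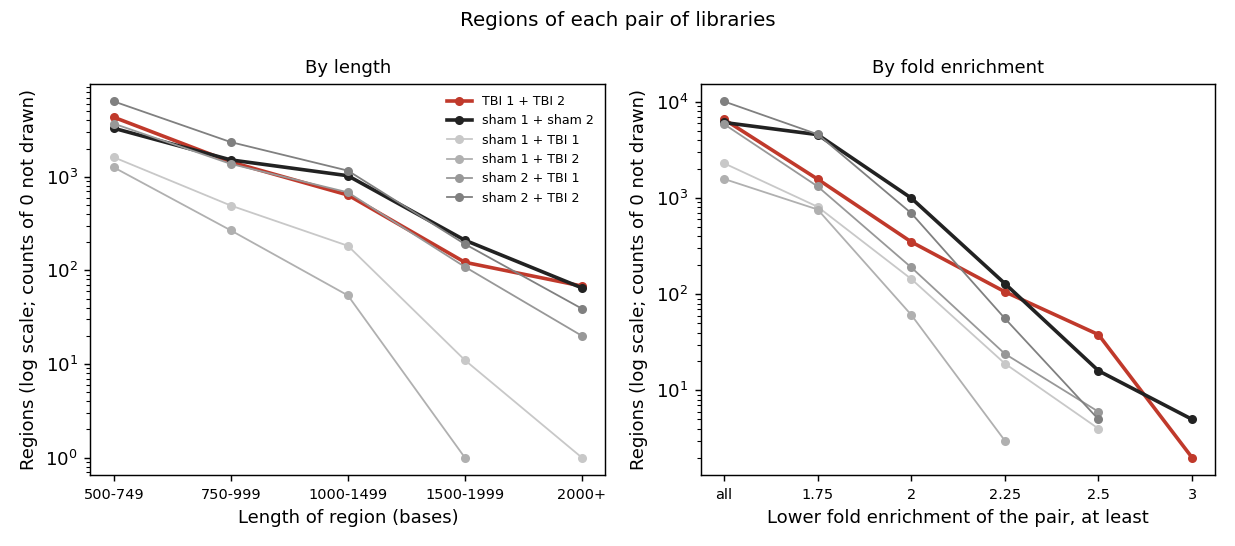
Number of regions of each pair of libraries (vertical axes, log scale, counts of 0 not drawn) by length in bases (left) and by the lowest fold enrichment required of both libraries (right). The red TBI-only and black sham-only lines end above the grey cross pairs. There are 68 and 65 regions of 2000 bases or more against at most 39. At a fold enrichment of 2.5 or more there are 38 and 16 against at most 6. At 1.75 and 2 the TBI-only line is below that of sham replicate 2 and TBI replicate 2. On the left, that pair is above both kinds of member under 1500 bases, and above TBI-only regions from 1500 to under 2000 bases.

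The strongest TBI-only region was also the longest, at chr16:20414826-20420096 with 5271 bases. Its pileup was 10.97 in TBI replicate 1 and 4.63 in TBI replicate 2, fold enrichments of 4.40 and 3.18, with no peak in either sham library. It began 591 bases beyond the end of a region found in all 4 libraries, chr16:20410607-20414234, whose pileups were 16.9 and 13.7 in sham and 12.1 and 7.19 in TBI. The neighbouring shared region was thus no higher in TBI replicate 1 than in the sham libraries by pileup, which is not scaled for depth.

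The second was chr14:44862498-44865240, with pileups of 7.45 and 4.49 and fold enrichments of 3.11 and 3.09. The third, chr17:57368098-57369852, had 8.80 and 4.32, fold enrichments of 3.61 and 3.00, and its nearest shared region was 323661 bases away. The next were chr10:107028861-107030619, chr1:142563572-142565864, chr1:2889396-2890168, chr8:22612649-22615565, chr6:131463619-131465776, chr1:90003241-90004369 and chr20:6148956-6150881. All 10 had a fold enrichment of at least 2.85 in both TBI libraries, and 9 of the 10 were longer than 1000 bases. The longest TBI-only regions after the first were chr4:211866889-211871439 with 4551 bases and chr1:197930506-197934332 with 3827.

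By the lower fold enrichment of the pair, the first 5 sham-only regions were higher than the TBI-only regions of the same rank, and the next 5 were lower. The first, chr7:10435908-10436650, had pileups of 10.5 in sham replicate 1 and 15.4 in sham replicate 2, fold enrichments of 3.95 and 5.41, over 743 bases. The fifth and sixth lay on either side of it, chr7:10434446-10435610 with pileups of 7.77 and 10.4, and chr7:10437160-10437781 with 7.18 and 7.53, so that 3 of the 10 strongest form a single cluster. The nearest region found in all 4 libraries, chr7:10444114-10444608, had pileups of 9.25 and 15.8 in sham and 3.03 and 2.38 in TBI. Sham was the higher group there too by pileup percentile within each library, in a region whose height the selection did not use. Not all neighbours of the 10 were alike. Percentiles were 58.5 and 53.9 in sham and 61.2 and 59.1 in TBI near chr1:71331151-71331709. They were 62.4 and 58.8 in sham and 65.7 and 65.8 in TBI near chr14:107464105-107465009. Both sham percentiles were above both TBI percentiles near chr14:101749421-101749975, chr18:38076025-38076941, chr16:64635334-64637402 and chr6:39303963-39304462. Near chr6:27266477-27267905 they were mixed.

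The second sham-only region was chr1:71331151-71331709 with pileups of 10.4 and 13.9, the third chr14:101749421-101749975 with 9.10 and 13.6, and the fourth chr6:27266477-27267905 with 8.80 and 10.6. The remaining ones of the 10 were chr18:38076025-38076941, chr16:64635334-64637402, chr6:39303963-39304462 and chr14:107464105-107465009. Of the 10, 3 were longer than 1000 bases. The longest sham-only regions were weak: chr10:12397139-12400541, chr1:64939706-64943033 and chr1:178011444-178014719 had 3276 to 3403 bases and fold enrichments of 1.76 to 2.29. Length and strength thus went together at the top of the TBI-only list and not at the top of the sham-only list.

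**Figure D3:**
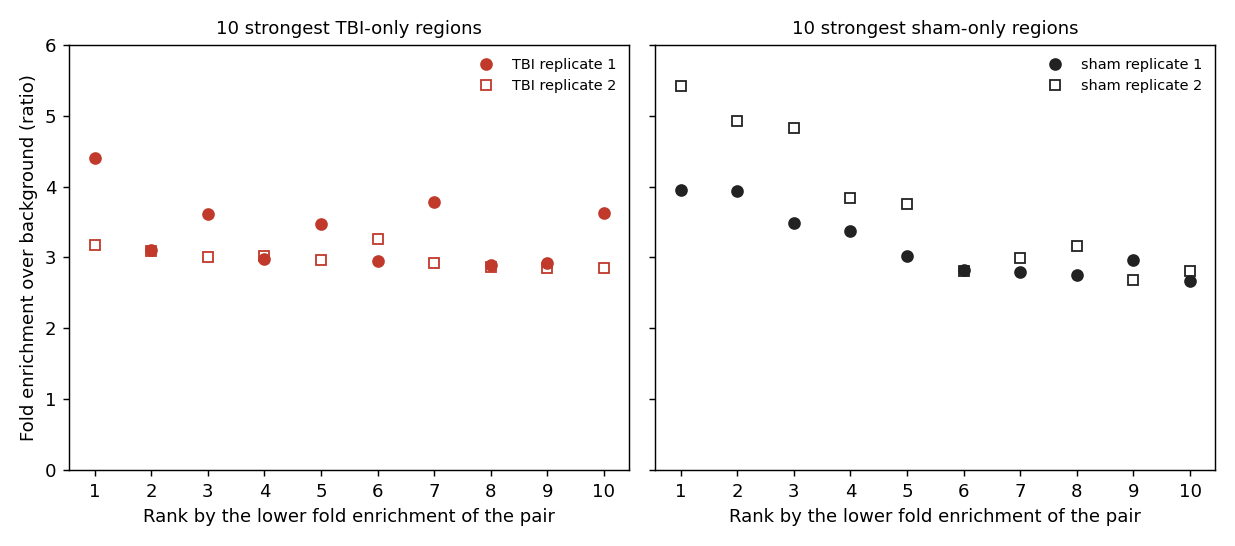
Fold enrichment over background (vertical axis, a ratio) in each library of the group for the 10 strongest TBI-only regions (left) and the 10 strongest sham-only regions (right), ranked by the lower value of the pair. TBI-only values lie between 2.85 and 4.40 and sham-only values between 2.67 and 5.41, with the first 5 sham-only regions higher in replicate 2.

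The strongest region of every cross pair was below all 10 strongest TBI-only regions and below the first 7 sham-only regions. The lower fold enrichment was 2.761 at chr18:79936888-79937431 (sham replicate 1 and TBI replicate 1), 2.403 at chr19:30521139-30521646 (sham replicate 1 and TBI replicate 2), 2.753 at chr5:142970820-142971347 (sham replicate 2 and TBI replicate 1) and 2.727 at chr1:266278967-266279603 (sham replicate 2 and TBI replicate 2). All 4 of these regions were shorter than 1000 bases.

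The limit of 500 bases fell in the middle of a continuous distribution. There were 268 TBI-only regions of 490 to 499 bases and 261 of 500 to 509 bases, with medians of the lower fold enrichment of 1.62 and 1.60. The strongest were chr2:73805517-73806011 (2.16) just outside and chr7:11338299-11338803 (2.54) just inside. There were 157 and 185 such sham-only regions, with medians of 1.799 and 1.778, the strongest being chr17:26302516-26303013 (2.31) and chr6:39303963-39304462 (2.69).

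A member had no peak of the other group over it, but often had one close by. The nearest peak of the other group was at a median of 1820 bases from a TBI-only and 960.5 bases from a sham-only region. It was within 1000 bases of 2311 TBI-only (35.1%) and 3128 sham-only regions (51.2%), and beyond 5000 bases of 1524 (23.2%) and 583 (9.55%). Most members of both kinds thus had a peak of the other group within 5000 bases. The lists searched differed in size, with 178020 and 353688 peaks in TBI for sham-only regions and 116241 and 235078 in sham for TBI-only regions. The same distances were not set beside those of cross pairs, and the part of list size was not tested.

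TBI-only and sham-only regions lay in different surroundings. Regions of any length found in all 4 libraries with a fold enrichment of at least 4 in each, 13338 in number, were taken as strong shared regions, a measure chosen after values had been seen. Of the TBI-only regions, 4163 (63.2%) were within 50000 bases of a strong shared region, and of the sham-only regions 1581 (25.9%), with median distances of 28703 and 153142 bases. Over all kept regions other than those of all 4 libraries, the share was 40.6%. In the cross pairs it was 61.9% and 51.8% with sham replicate 1 (with TBI replicates 1 and 2), and 41.1% and 32.3% with sham replicate 2. TBI-only regions were thus just above the highest cross pair, sham-only regions were below every cross pair, and pairs that held sham replicate 2 were lower than pairs that did not. Above the common floor of fold enrichment the shares were 66.3% of TBI-only and 27.6% of sham-only regions, against 33.3% to 61.3% in the cross pairs. Among regions of 1000 bases or more they were 69.0% and 20.0%, against 27.7% to 70.3%. With a lower fold enrichment of at least 2 they were 64.9% and 22.6%, against 29.0% to 67.2%. In these latter settings a cross pair with sham replicate 1 was thus above TBI-only regions, while sham-only regions stayed below every cross pair.

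Closer in, within 5000 bases of any of the 34589 regions of any length found in all 4 libraries, the shares were less far apart, at 32.1% of TBI-only and 26.0% of sham-only regions, against 20.3% to 38.9% in the cross pairs and 25.4% over all kept regions not found in all 4. The shared regions near the 2 kinds of member differed in height. Ranked by pileup within each library over all shared regions, those near TBI-only regions had median percentiles of 61.6 and 61.1 in sham and 63.0 and 62.7 in TBI. Those near sham-only regions had 24.7 and 33.0 in sham and 19.8 and 28.6 in TBI. Near the cross pairs with sham replicate 1, the medians of the 4 libraries ran from 58.9 to 65.4. Near those with sham replicate 2 they ran from 30.7 to 40.1. Height was thus lower near all pairs that held sham replicate 2, and not only near sham-only regions.

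At these shared neighbours, whose heights the selection did not use, the groups differed by little. They came from the same merge of peaks as the members, so they are not independent of them. The mean TBI percentile minus the mean sham percentile had a median of 0.81 points near TBI-only regions, with TBI higher at 57.1% of 1974 neighbours, and of -2.36 points near sham-only regions, with TBI higher at 39.2% of 1427. Over all 34589 shared regions the median was 0.068 and TBI was higher at 50.7%, and near the regions of the cross pairs the medians ran from -0.82 to 0.48. Near TBI-only regions each of the 4 differences between a TBI and a sham library was positive, from 0.40 to 1.71. Near sham-only regions they were -1.70, -6.16, 0.61 and -2.19, so TBI replicate 2 was higher there than sham replicate 1. Leaving out sham replicate 1, sham replicate 2, TBI replicate 1 or TBI replicate 2 in turn gave medians of 1.33, 0.35, 0.32 and 1.32 near TBI-only regions and of -3.57, -0.99, -1.06 and -4.53 near sham-only regions. In these settings the group of the library left out rested on its other library alone, and shared regions were those of all remaining libraries. With only peaks of at least 4-fold enrichment the sign near TBI-only regions turned, to -0.67. That value rests on few neighbours, since 7.61% of the 92 TBI-only regions of that setting were near a shared region. None of those 92 regions lay inside a member. The differences between replicates of a group, 3.20 in sham and 2.81 in TBI near sham-only regions and -0.82 and -0.67 near TBI-only regions, were as large as or larger than the median between the groups near the sham-only regions, and about as large near the TBI-only regions.

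**Figure D4:**
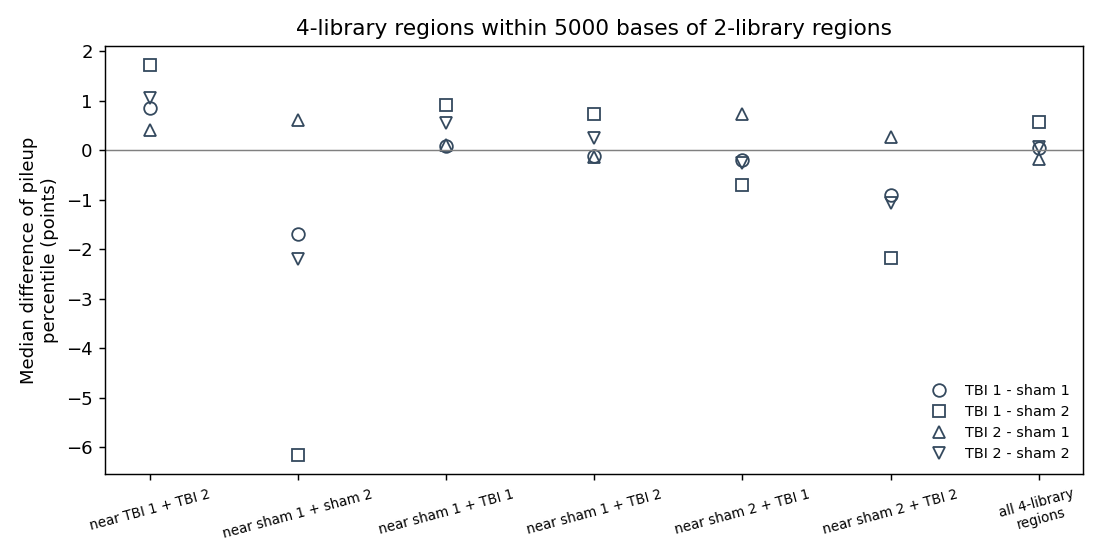
Median difference of pileup percentile (vertical axis, points) between each TBI and each sham library, over the regions found in all 4 libraries that lie within 5000 bases of the regions of each pair, and over all such shared regions. Near TBI-only regions all 4 symbols are above 0 (0.40 to 1.71), and near sham-only regions 3 of 4 are below 0 (lowest -6.16).

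Members were often gathered in runs. With members less than 50000 bases apart joined, 141 runs of 5 or more held 1320 sham-only regions (21.6%), and 75 such runs held 444 TBI-only regions (6.75%). In the cross pairs the share was 0.565%, 0%, 4.09% and 12.3%, the last being sham replicate 2 with TBI replicate 2. Such shares grow with the number of regions of a pair, and the TBI-only and sham-only regions were similar in number. Runs of 10 or more held 711 sham-only (11.6%) and 20 TBI-only regions.

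The runs of the 2 kinds were of a different make. A strong shared region lay inside 55 of the 75 TBI-only runs (73.3%) and inside 5 of the 141 sham-only runs (3.55%). In the cross pairs it lay inside 5 of 41 runs (12.2%) of sham replicate 2 with TBI replicate 1. The counts were 23 of 179 (12.8%) for sham replicate 2 with TBI replicate 2 and 0 of 2 for sham replicate 1 with TBI replicate 1. Low shares were thus not particular to sham-only runs. The sham-only run with the most members, 29, was chr6:149460478-149890053, where the libraries had 170, 260, 100 and 141 peaks (sham replicates 1 and 2, TBI replicates 1 and 2), and the highest fold enrichment was 2.83, 3.17, 2.24 and 2.81. Peaks in it were 9.88, 7.47, 3.80 and 2.69 times as dense as over the genome in the same libraries. It was thus a stretch of dense low peaks in every library, denser in sham, and with no strong peak in any.

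The next sham-only runs were chr1:177726575-178038922 with 28 members, chr6:151713947-152172233 and chr8:19307766-19749542 with 27 each, and chr7:17359822-17747574 with 26. Over all 141 sham-only runs the peak density was 6.72 and 5.97 times that of the genome in sham and 2.49 and 1.75 times in TBI. Over the 75 TBI-only runs it was 4.53 and 2.74 times in TBI and 2.86 and 1.81 times in sham. In both kinds of run, peaks of the other group were denser than over the genome. Since the runs were found from the members, the higher density in the members' own group follows from the selection.

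The largest TBI-only runs had 10 members each. That at chr16:1736949-1793820 spanned 56.9 kb, with 7 and 10 peaks in sham and 34 and 29 in TBI, and no fold enrichment above 2.90. That at chr20:6529621-6705906 spanned 176.3 kb, with 15 and 24 peaks in sham and 45 and 56 in TBI, and it held a peak with a fold enrichment of 23.1 and 17.8 in sham and 26.8 and 19.0 in TBI. The second run surrounded strong H3K4me3 peaks present in every library, and the first did not. Without any region in a run of 5 or more, an alternative added after seeing the data, there were 6138 TBI-only and 4786 sham-only regions, and the ratio to the cross pairs was 1.48.

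**Figure D5:**
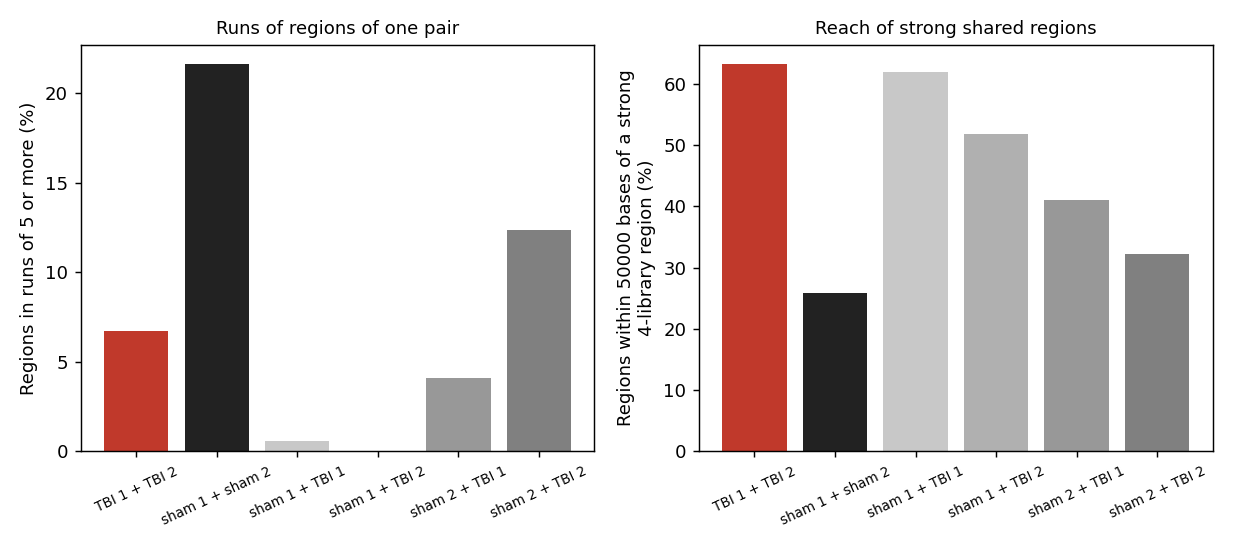
Percent of the regions of each pair of libraries that lie in runs of 5 or more regions less than 50000 bases apart (left) and percent within 50000 bases of a strong region found in all 4 libraries (right). Sham-only regions have the highest bar for runs (21.6%) and the lowest for strong shared regions (25.9%), while TBI-only regions (63.2%) and the pair of sham replicate 1 and TBI replicate 1 (61.9%) are highest on the right.

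The 2 kinds of member were also spread unequally over chromosomes. On chromosome 10 lay 566 TBI-only regions, 1.42 times the share that chromosome 10 has of all kept regions, and 276 sham-only regions, 0.746 times. The cross pairs were at 1.29 and 1.28 with sham replicate 1 and 0.98 and 0.88 with sham replicate 2, so this too moved with sham replicate 2. Sham-only regions were 1.28 times as frequent on chromosome 1 and 1.25 times on chromosome 6, and these chromosomes together held 3 of their 5 largest runs. On the X chromosome both kinds were scarce, with 39 TBI-only (0.615 times) and 25 sham-only regions (0.425 times), against 1.22, 0.20, 0.30 and 0.27 times in the cross pairs.

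Stricter thresholds chose other regions by construction, since no member reached a fold enrichment of 4, or a −log10 q of 10, in both of its libraries. With peaks of at least 4-fold enrichment there were 92 TBI-only and 209 sham-only regions, and with peaks of a −log10 q of at least 10 there were 5 and 92. All 5, 92 and 92 of them, and 206 of the 209, lay inside regions that the full lists found in all 4 libraries. Those regions differ between groups in passing a threshold, and not in the presence of a peak. At both thresholds the largest count belonged to a pair across groups, sham replicate 1 and TBI replicate 1, with 748 regions at 4-fold and 788 at the q limit. Of the regions found in exactly 2 libraries, 25.3% were within a group at 4-fold and 10.3% at the q limit. The pairs across groups that held TBI replicate 2, the library with the fewest tags, had 14 and 4 regions at 4-fold and 1 and 0 at the q limit. The part of depth in these counts was not tested.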

How the data were processed

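The H3K4me3 peak lists of 2 sham and 2 TBI libraries of day 1 were used. The authors trimmed reads with Trim Galore 0.5.0, aligned them to rn5 with bwa 0.7.16a, used SAMtools 1.8 to drop duplicates, and ran MACS2 2.1.2 on each sample in broad mode with a genome-wide background. The deposited pileup is a signal (coverage) value, not scaled for depth. The fold enrichment column is a ratio made by the authors' run. The deposited −log10 q column (from MACS2 p-values) was taken at face value, although the headers say that q was not calculated.

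Merging and ranking used Python 3.11.15 (pandas 2.3.3, numpy 2.4.6, scipy 1.17.1), and plots used matplotlib 3.10.9. The merging was tested on simulated peaks. For each region the highest value of each library was kept. No test was made. Regions named are the 10 strongest and 3 longest of each kind, the strongest of each cross pair, those at the limit of 500 bases, and the largest runs. The members and lists were chosen with earlier results of these data known.

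Alternatives were a −log10 q of at least 10, a fold enrichment of at least 4, equal numbers of peaks, an overlap of 50% of the shorter peak, merging up to 1000 bases apart, other lengths, a margin of 1000 bases, numbered chromosomes and X alone, and each library left out. A common floor of fold enrichment, and leaving out runs, were added after seeing the data. RNA counts were not used, since no rn5 annotation ties regions to genes here.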

Additional observations from a re-analysis of the deposited data

How the results depend on the processing

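TBI-only and sham-only regions numbered 5 and 92 at a −log10 q of at least 10, 92 and 209 at a fold enrichment of at least 4, 828 and 1300 at 1000 bases or more, 15055 and 10793 at any length, 4271 and 2978 with a margin of 1000 bases, and 2082 and 9396 above the common floor. With equal numbers of peaks they were 2046 and 7173, with peaks up to 1000 bases apart merged 17401 and 5257, and with 50% overlap 4974 and 5471. The ratio was 2.92 at a fold enrichment of at least 4, where 2 cross counts were 14 and 4 and another, 748, was above both member counts, and 3.13 at 1000 bases or more; it had no value at a −log10 q of at least 10, where a cross count was 0, and none with a library left out. Leaving out 1 library gave 8614 to 15653 TBI-only regions (9227 without sham replicate 1, 10287 without sham replicate 2, 15653 without TBI replicate 1, 8614 without TBI replicate 2) and 3194 to 19507 sham-only regions (19507, 3194, 10765 and 10203 in that order). In these settings the group of the library left out was represented by its other library alone, for presence and for absence. Shared regions were then those found in all remaining libraries. These counts are therefore not of the same kind of region as the members.

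The share of TBI-only regions within 5000 bases of a shared region was 0% at the q limit, 7.61% at a fold enrichment of at least 4, 30.1% with equal numbers of peaks, 34.2% with 50% overlap, 21.0% with merging up to 1000 bases apart, 37.7% at 1000 bases or more, 29.3% at any length, 22.3% with the margin, and 20.7% to 38.5% without 1 library. For sham-only regions it was 19.6% at the q limit, 19.1% at a fold enrichment of at least 4, 16.6% with equal numbers of peaks, 17.5% with merging up to 1000 bases apart, 15.4% with the margin, 18.6% above the common floor, 22.9% without runs, and 23.8% to 39.0% without 1 library. The percentile difference near TBI-only regions turned to -0.67 at a fold enrichment of at least 4 and had no value at the q limit, and near sham-only regions it was -49.0 at the q limit and -28.1 at a fold enrichment of at least 4. These values rest on few neighbours, near 7.61% of 92 TBI-only regions and near 19.6% of 92 and 19.1% of 209 sham-only regions. Without 1 library the percentile difference was 0.32 to 1.33 near TBI-only and -4.53 to -0.99 near sham-only regions. The cause was not tested.

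No paired analysis was possible because the replicate number is only a name in the labels, which do not say what it stands for. No test was made. The product of the counts of same-numbered cross pairs was 2.51 times that of the other cross pairs. What same-numbered libraries had in common was not tested. The comparison with RNA of nearby genes was not run, since no annotation of rn5 was used. The median pileup of the members lay within about 1 tag of the lowest pileup of its list, and a missing peak says only that the list's limit was not reached.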
